A study of Mus musculus with 20 samples.

Results

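The 44 genes described here are a fixed list of DNA replication and mitosis genes, taken as every row of the gene count table whose symbol is on the list. All 44 were found among 43346 genes, and all 44 passed the filter on low counts that left 18883 genes for testing. They were parted by role into 9 S phase genes (Mcm2 to Mcm7, Pcna, Rrm1 and Rrm2), 7 genes of S phase entry, its checkpoint and nucleotide supply (Tyms, Cdc6, Cdt1, Gins2, Ccne1, Ccne2 and Chek1; G1/S genes below) and 28 mitosis genes. They were measured in spontaneous breast tumors of 20 female mice, each an F1 of strains BALB/c-neuT and FVB/J, with 1 late-stage tumor per mouse. All 20 mice carried the activated rat HER2/neu transgene (neuT) from a hemizygous BALB/c-neuT father, and their mothers were wildtype FVB/J. The sample names put 9 tumors under Lo and 11 under Hi, and the sources used here do not say what Lo and Hi stand for. No normal tissue or transgene-free group is among the 20 samples, and the age of each mouse is not given. The RNA came from small pieces of frozen tumor, which hold stroma and blood beside tumor cells, so fewer cycling cells and less RNA per cycling cell cannot be told apart.

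A cell copies its DNA in S phase and parts the copies in mitosis. Before S phase, Cdc6 and Cdt1 load a ring of Mcm2 to Mcm7, the replicative helicase, onto replication origins, and cyclin E with its kinase starts the firing of these origins. Transcription of the loading factors, the helicase and the enzymes of nucleotide supply is largely set by E2F factors, which act from late G1. Genes of mitosis reach their peak later, in G2 and mitosis, through the DREAM and MMB-FOXM1 complexes, which read a promoter element called the CHR, often beside CCAAT boxes bound by NF-Y. In a bulk tumor sample both waves rise with the share of cells in cycle, which is why Mki67, Top2a and the Mcm genes are used as proliferation markers in breast tumors.

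The libraries held from 38765682 to 65465755 assigned reads and from 23557 to 25676 detected genes each, and no 2 of the 190 pairs of tumors were alike within sampling noise. Between 6.29% and 27.7% of the reads fell on the ribosomal RNA locus, with medians of 19.6% in the Lo and 14.02% in the Hi tumors. All 7 epithelial markers (Epcam, Krt8, Krt18, Krt19, Cdh1, Cldn3 and Cldn7) were among the tested genes, and their summed level was 2690 to 4293 CPM (CPM, counts scaled to library size after TMM normalization). T cell markers summed to 0.341 to 2.79 CPM. The strand setting of the counting is not given in the sources used here, so reads of overlapping genes may be shared or lost. Cdt1 and Gins2 lie wholly inside the read-through gene Gm20388, Ccne2 overlaps Ints8 over 5622 bases and Kif20a overlaps Cdc23 over 2315 bases, which makes these values less certain. Pcna has a processed copy, Pcna-ps2, with 348 to 962 reads per tumor.

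The promoters below were picked as examples that hold the CHR or E2F words, and they do not stand for every member. Among S phase genes, Mcm2 and an Mcm7 promoter held a CHR word. Mcm2, Pcna, Rrm1, Rrm2 and another Mcm7 promoter held no E2F word. Among mitosis genes, Ccnb1, Birc5, Nusap1, Cenpe and Mad2l1 held no CHR word, and Cdk1 held an E2F word. RefSeq promoters on GRCm38.p6, from 250 bases before to 50 after the start, were found for 35 of the 44 members (38 promoters). None was found for Aurkb, Ccna2, Ccne2, Cdc25c, Foxm1, Gins2, Incenp, Kif20a and Mcm4. The words searched on both strands were TTTGAA and TTCGAA for the CHR, CCAAT for the NF-Y box, and TTTCCCGC, TTTGGCGC, TTTCGCGC and TTTGCCGC for E2F, where words on opposite strands may overlap. Printed are 200 bases before to 30 bases after the start, 5′ to 3′ in the direction of the gene, with these words or their reverse complements in capitals. The first 5 are mitosis genes and the last 3 are S phase genes.
Ccnb2 (chr9:70421525-70421754, minus strand): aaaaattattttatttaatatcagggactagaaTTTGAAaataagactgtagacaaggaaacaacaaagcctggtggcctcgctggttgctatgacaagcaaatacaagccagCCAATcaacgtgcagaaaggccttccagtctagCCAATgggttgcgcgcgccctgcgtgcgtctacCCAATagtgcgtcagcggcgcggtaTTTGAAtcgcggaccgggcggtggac
Cdk1 (chr10:69352883-69353112, minus strand): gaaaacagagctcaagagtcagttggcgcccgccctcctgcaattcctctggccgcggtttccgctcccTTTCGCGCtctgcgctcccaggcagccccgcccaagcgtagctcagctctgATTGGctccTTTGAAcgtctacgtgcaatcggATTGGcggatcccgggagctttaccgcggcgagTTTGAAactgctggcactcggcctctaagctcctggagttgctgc
Top2a (chr11:99024160-99024389, minus strand): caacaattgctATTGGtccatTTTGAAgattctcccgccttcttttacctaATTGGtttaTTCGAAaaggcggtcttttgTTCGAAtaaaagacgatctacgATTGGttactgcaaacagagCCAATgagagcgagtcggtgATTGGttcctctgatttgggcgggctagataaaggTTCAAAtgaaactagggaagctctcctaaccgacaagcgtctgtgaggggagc
Cdc20 (chr4:118437314-118437543, minus strand): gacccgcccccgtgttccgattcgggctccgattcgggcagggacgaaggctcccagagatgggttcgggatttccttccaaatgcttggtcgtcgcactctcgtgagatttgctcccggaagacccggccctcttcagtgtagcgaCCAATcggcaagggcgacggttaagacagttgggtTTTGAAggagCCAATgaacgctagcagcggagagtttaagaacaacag
Mki67 (chr7:135716350-135716579, minus strand): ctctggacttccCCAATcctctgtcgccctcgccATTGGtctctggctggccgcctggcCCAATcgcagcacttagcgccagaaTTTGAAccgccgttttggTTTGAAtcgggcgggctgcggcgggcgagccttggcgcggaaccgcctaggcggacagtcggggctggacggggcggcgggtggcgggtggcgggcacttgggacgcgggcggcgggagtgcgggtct
Mcm5 (chr8:75109309-75109538, plus strand): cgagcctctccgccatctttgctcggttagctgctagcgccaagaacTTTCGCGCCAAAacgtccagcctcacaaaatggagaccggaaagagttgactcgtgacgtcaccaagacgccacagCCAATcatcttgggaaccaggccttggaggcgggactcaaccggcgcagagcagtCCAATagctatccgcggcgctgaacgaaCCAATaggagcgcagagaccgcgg
Mcm6 (chr1:128359676-128359905, minus strand): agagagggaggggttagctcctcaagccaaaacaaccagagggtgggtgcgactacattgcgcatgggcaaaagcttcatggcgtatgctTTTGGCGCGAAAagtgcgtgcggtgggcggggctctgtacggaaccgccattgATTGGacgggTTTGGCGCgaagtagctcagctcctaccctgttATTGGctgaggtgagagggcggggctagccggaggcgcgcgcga
Mcm3 (chr1:20820283-20820512, minus strand): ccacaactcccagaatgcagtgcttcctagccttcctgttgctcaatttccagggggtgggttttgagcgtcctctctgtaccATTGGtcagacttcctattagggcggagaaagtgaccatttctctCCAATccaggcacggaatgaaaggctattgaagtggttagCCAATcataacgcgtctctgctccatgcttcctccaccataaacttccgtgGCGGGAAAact

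Counts are of promoters, and Ect2 and Prc1 each entered with 2 overlapping windows that held the same CHR and CCAAT words. A CHR word stood in 19 of 24 mitosis promoters (79.2%), in 2 of 9 S phase promoters and in 0 of 5 G1/S promoters, against 19.2% of all 32851 promoters. With the bases before the start alone, the mitosis count was 11 of 24 (45.8%) against 17.1% of all. CCAAT stood in 9 of 9 S phase and in 19 of 24 mitosis promoters, against 37.4% of all and 0 of 5 G1/S promoters. Of these, 5 S phase and 12 mitosis promoters held at least 2 CCAAT words, against 11.7% of all. An E2F word stood in 4 of 9 S phase promoters and in 2 of 5 G1/S promoters (Cdc6 and Cdt1), but in 1 of 24 mitosis promoters (Cdk1), against 2.26% of all promoters. All 4 S phase promoters with an E2F word held at least 2, namely Mcm3, Mcm5, Mcm6 and 1 of the 2 Mcm7 promoters. Among the printed mitosis promoters, a CHR word lay within 20 bases of the start in Ccnb2, Cdc20 and Cdk1. Of these, Ccnb2 and Cdk1 held another farther upstream, and both CHR words of Mki67 lay farther upstream. Among promoters not printed, a CHR word lay within 20 bases of the start in Bub1, Cenpa, Cenpf, Kif11, Kif23 and Ttk. The same held for 1 promoter each of Ect2 and Prc1. Median GC content was 57.3% for S phase, 63.3% for G1/S, 59.0% for mitosis and 52.7% for all promoters. These matches are descriptions of letters in a window, not of bound sites.

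**Figure D1:**
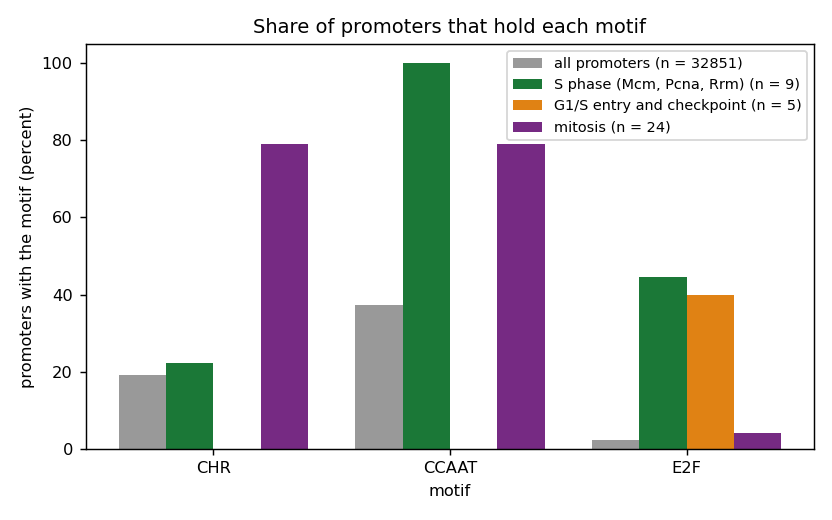
Percent of RefSeq promoters (300 bases) that hold at least 1 CHR, CCAAT or E2F word, for all promoters (grey), S phase, G1/S and mitosis members. The mitosis bar stands highest for the CHR at 79.2%, the S phase bar reaches 100% for CCAAT, and E2F words are at 44.4% for S phase and 4.17% for mitosis.

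Among S phase genes, the 6 helicase subunits were made in similar amounts: their medians over 20 tumors lay between 12.1 and 18.7 RPKM, a level per kilobase of coding length. Pcna, the sliding clamp that holds DNA polymerases on the template, was the highest of all 44 members per length, at a median of 31.5 RPKM (lowest 23.2, highest 47.8). Rrm1 and Rrm2, the large and small subunits of ribonucleotide reductase, had medians of 23.6 and 25.1 RPKM. On the CPM scale used below to compare 1 gene between tumors, Mcm2 ran from 39.5 through a median of 46.9 to 57.4 CPM in the Lo tumors and from 37.6 through 45.8 to 65.03 CPM in the Hi tumors. Mcm5 ran from 55.8 through a median of 65.1 to 87.1 CPM in the Lo tumors and from 46.1 through 63.1 to 84.7 CPM in the Hi tumors. The lowest, median and highest values of Mcm6 were 41.7, 70.1 and 92.5 CPM in the Lo tumors and 53.3, 62.3 and 93.2 CPM in the Hi tumors. Mcm2 and Mcm5 were high in Hi 1 and Lo 2, and Mcm6 was lowest in Lo 8, a tumor in which Mcm2, Mcm3, Mcm5 and Mcm7 lay just above their medians. Mcm7 ran from 70.3 through a median of 77.7 to 95.3 CPM in the Lo tumors and from 65.4 through 74.2 to 98.4 CPM in the Hi tumors, the smallest spread of the S phase genes, with a ratio of highest to lowest tumor of 1.505. Pcna ran from 70.8 through a median of 78.7 to 115 CPM in the Lo tumors and from 55.8 through 74.98 to 93.6 CPM in the Hi tumors. For Rrm2, the lowest, median and highest values were 57.2, 73.6 and 81.9 CPM in the Lo tumors and 48.2, 67.7 and 88.8 CPM in the Hi tumors. The highest Pcna was that of Lo 2, with Hi 2 next at 93.6 CPM, and Rrm2 was lowest in Hi 8, Hi 11 and Hi 4. The other 3 genes, Mcm3, Mcm4 and Rrm1, had ratios of highest to lowest tumor of 1.86, 1.53 and 1.71. The Lo and Hi ranges overlapped for all 9 S phase genes.

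The G1/S genes were lower per length and less alike. Cdc6, the origin loading factor, was the lowest member, at a median of 1.78 RPKM (lowest 1.25, highest 2.82), while Tyms, which makes thymidylate for DNA, had a median of 5.86 RPKM. Tyms ran from 30.9 through a median of 36.3 to 48.9 CPM in the Lo tumors and from 23.7 through 35.6 to 42.2 CPM in the Hi tumors. Cdc6 ran from 8.88 through a median of 9.61 to 10.7 CPM in the Lo tumors and from 6.53 through 8.63 to 14.8 CPM in the Hi tumors. Cdc6 was lowest and highest in Hi tumors, so its Lo range lay inside its Hi range. The 2 cyclins E, which activate Cdk2 at the start of S phase, differed in spread. Ccne1 ran from 5.596 through a median of 7.69 to 12.9 CPM in the Lo tumors and from 4.36 through 6.13 to 11.9 CPM in the Hi tumors, the widest spread of all 44 members (SD of log2 CPM 0.4396, ratio 2.96). Ccne2 ran from 7.66 through a median of 10.1 to 12.5 CPM in the Lo tumors and from 6.87 through 9.12 to 15.2 CPM in the Hi tumors. Gins2, a subunit of the active helicase, varied least of all 44 members (SD of log2 CPM 0.128), and the lowest, median and highest values of Gins2 were 34.4, 35.8 and 45.6 CPM in the Lo tumors and 33.1, 36.7 and 43.5 CPM in the Hi tumors. The ratios of highest to lowest tumor of Cdt1, which loads the helicase with Cdc6, and of Chek1, the kinase that stalls the cycle on damaged DNA, were 1.78 and 1.95. The Lo and Hi ranges overlapped for all 7 G1/S genes.

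Mki67, whose protein coats mitotic chromosomes, was the highest mitosis gene per length, at a median of 27.1 RPKM (lowest 13.5, highest 32.1). Mki67 ran from 197 through a median of 303 to 324 CPM in the Lo tumors and from 136 through 269.6 to 319 CPM in the Hi tumors. Top2a ran from 99.9 through a median of 132 to 156 CPM in the Lo tumors and from 71.3 through 125 to 149 CPM in the Hi tumors, for the topoisomerase that untangles sister chromatids. Both were lowest in Hi 8, with Lo 1 the lowest of the Lo tumors, while the highest Lo and Hi values were close to each other. Cyclin B and its kinase drive entry into mitosis. Ccnb1 ran from 20.4 through a median of 31.9 to 34.1 CPM in the Lo tumors and from 14.5 through 22.01 to 30.3 CPM in the Hi tumors. For Cdk1, the lowest, median and highest values were 46.8, 71.1 and 84.96 CPM in the Lo tumors and 42.5, 58.2 and 77.2 CPM in the Hi tumors. Ccnb1 was lowest in Hi 8 and Lo 1 was the only Lo tumor below the Hi median. Cdc20 starts anaphase by activating the anaphase-promoting complex, and Plk1 is the polo kinase of spindle assembly and mitotic exit. Cdc20 ran from 22.1 through a median of 27.1 to 33.2 CPM in the Lo tumors and from 14.2 through 25.9 to 28.9 CPM in the Hi tumors. Plk1 ran from 20.0002 through a median of 27.7 to 34.98 CPM in the Lo tumors and from 16.6 through 25.2 to 31.3 CPM in the Hi tumors. Hi 8 was again the lowest for both. Aurkb and Birc5 (survivin) are subunits of the chromosomal passenger complex, which corrects faulty spindle attachments. Aurkb ran from 15.5 through a median of 20.7 to 25.2 CPM in the Lo tumors and from 10.6 through 17.98 to 22.8 CPM in the Hi tumors. For Birc5, the lowest, median and highest values were 23.7, 28.8 and 34.3 CPM in the Lo tumors and 18.03, 24.5 and 33.3 CPM in the Hi tumors. Foxm1 is the transcription factor that turns on G2 and mitosis genes, and the lowest, median and highest values of Foxm1 were 25.9, 32.7 and 39.6 CPM in the Lo tumors and 15.96, 29.1 and 35.7 CPM in the Hi tumors. The Lo and Hi tumors overlapped for these 3 genes, with Hi 8 below all others and Hi 4 and Hi 11 next. The kinetochore protein Cenpf had the widest spread of the mitosis genes (SD of log2 CPM 0.395), and the lowest, median and highest values of Cenpf were 34.002, 65.7 and 72.998 CPM in the Lo tumors and 27.3, 48.3 and 66.6 CPM in the Hi tumors. The spindle checkpoint protein Mad2l1 had the narrowest (SD of log2 CPM 0.232), and the lowest, median and highest values of Mad2l1 were 24.3, 29.5 and 34.6 CPM in the Lo tumors and 19.7, 27.5 and 36.6 CPM in the Hi tumors. Over the other 17 mitosis genes the ratio of highest to lowest tumor ran from 1.89 (Kif20a) to 2.94 (Bub1). Cenpf lies on chromosome 1 with Mcm3 and Mcm6, and Cdc20 and Kif2c lie on chromosome 4 with Ccne2. The study's karyotypes of tumors of this cross showed loss of a copy of chromosome 4 in every tumor. Other chromosomes, chromosome 1 among them, were at times lost or gained. Among the Lo tumors Cenpf was lowest in Lo 8, the tumor with the lowest Mcm6. The part of copy number in these levels was not tested. The Lo and Hi ranges overlapped for all 28 mitosis genes, and Hi 8 was the lowest of 20 tumors in 26 of them. Neither the overlap nor the lowest tumor was counted over all genes tested. The overlaps of each class are therefore descriptions only.

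**Figure D2:**
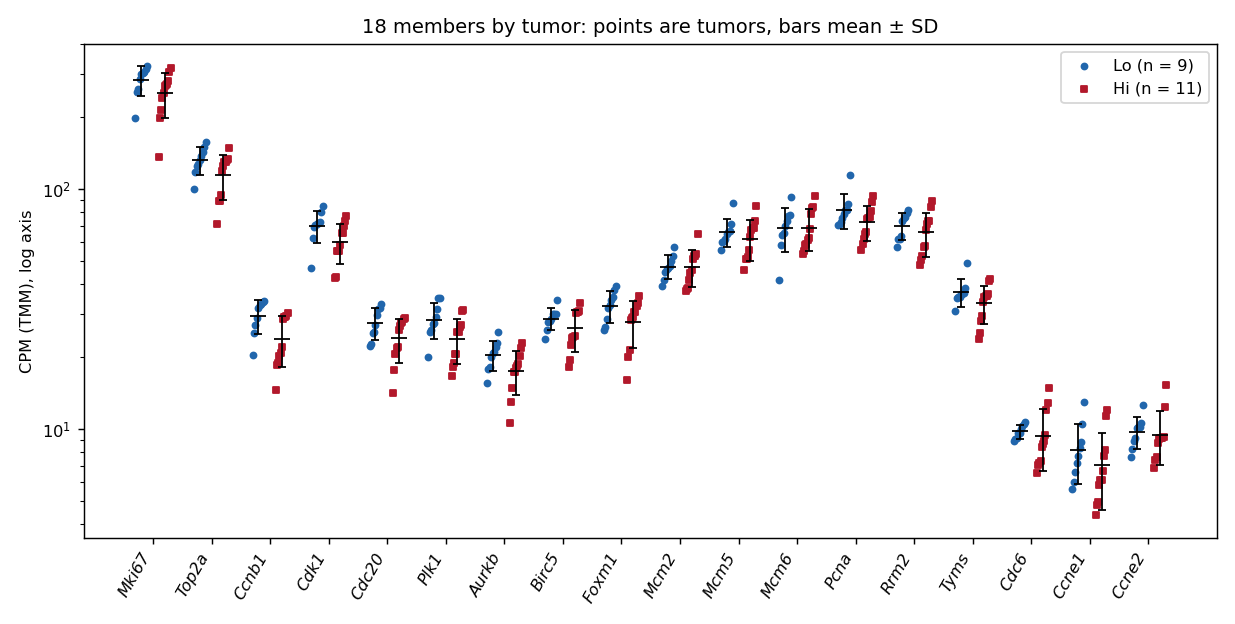
CPM of 18 members (horizontal axis) in each tumor on a log axis, Lo tumors as blue circles and Hi tumors as red squares, spread sideways by rank, with black bars for mean ± SD (n = 9 and 11). The low red square under Mki67, Top2a, Ccnb1, Aurkb and Foxm1 is Hi 8, and the Lo and Hi clouds overlap for every gene shown.

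The spread between tumors was described class by class, with no test of the difference between classes. The SD of log2 CPM had a median of 0.305 over the 28 mitosis genes, 0.274 over the 7 G1/S genes and 0.238 over the 9 S phase genes, and the median ratio of highest to lowest tumor was 2.32, 2.07 and 1.84. For the 10745 tested genes whose log2 CPM averaged 3 or more, the median SD was 0.181. It was exceeded by 28 of 28 mitosis, 6 of 7 G1/S and 8 of 9 S phase genes, the exceptions being Gins2 and Mcm7. Without Hi 8, the lowest tumor in 26 of 28 mitosis and 3 of 9 S phase genes, the median SD was 0.244 for mitosis, 0.270 for G1/S and 0.230 for S phase genes. Over all 18883 tested genes, which include many with few reads, the median SD was 0.251.

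To set the 2 phases side by side in each tumor, the level of a class was taken as the mean over its members of log2 CPM minus each gene's mean over 20 tumors. The mitosis level was lowest in Hi 8 (-0.77), Hi 4 (-0.41), Hi 11 (-0.32) and Lo 1 (-0.27), and in each of these 4 tumors 0 of 28 mitosis genes lay above their mean. It was highest in Lo 4 (0.31), Lo 11 (0.27) and Lo 2 (0.27), with 28, 26 and 26 of 28 genes above their mean. The S phase level was lowest in Hi 4 (-0.32) and Hi 8 (-0.30) and highest in Lo 2 (0.38) and Hi 1 (0.37). Hi 4, Hi 8 and Hi 11 were thus low in both classes and Lo 2 was high in both. Other tumors parted the classes. Lo 9 had 28 of 28 mitosis genes above and 0 of 9 S phase genes above their mean, a difference of 0.42 between the levels. Hi 3 went the other way, with 6 of 28 mitosis and 8 of 9 S phase genes above their mean and a difference of -0.26. In Hi 8 the mitosis level lay 0.47 below the S phase level (difference -0.47), the largest gap of the 20 tumors. Across tumors the 2 levels had a Pearson's r of 0.667 and a Spearman's rho of 0.576 (n = 20), with r of 0.270 within the 9 Lo and 0.785 within the 11 Hi tumors, given as a description because the points share libraries and scaling. The G1/S level went with the S phase level more closely (r = 0.857) than with the mitosis level (r = 0.624), a difference that was not tested.

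**Figure D3:**
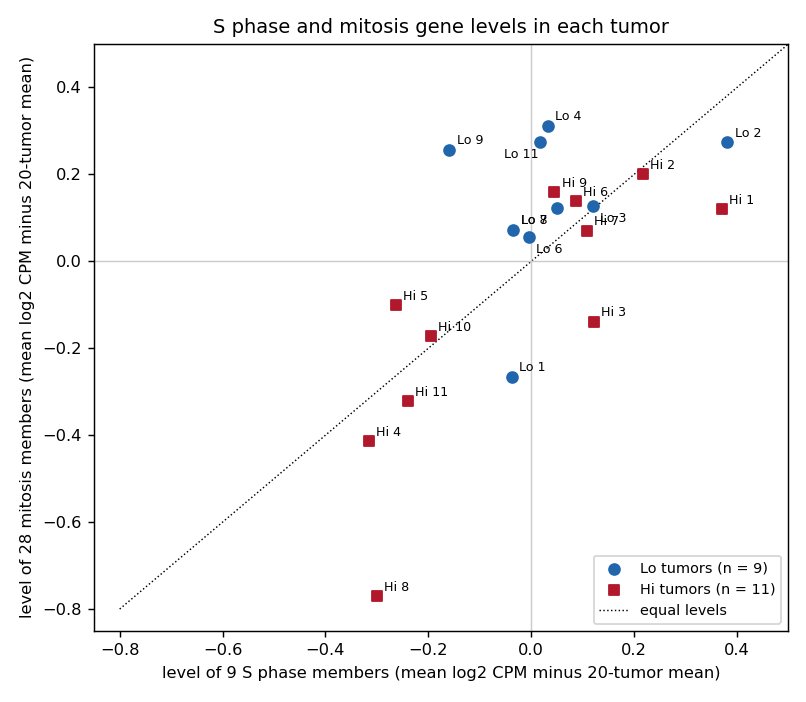
Level of the 28 mitosis genes against that of the 9 S phase genes in each of 20 tumors (mean log2 CPM minus the 20-tumor mean), Lo as blue circles and Hi as red squares, with a dotted line of equal levels. Hi 8 lies far below the line at -0.77 for mitosis, Lo 9 lies above it, and Hi 1 and Hi 3 lie below it.

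Gene by gene, all 378 pairs of mitosis genes had a positive correlation of log2 CPM over the 20 tumors, with a median r of 0.821 (lowest 0.443, highest 0.956). The pair with the highest r was Bub1b and Nusap1, a spindle checkpoint kinase and a spindle microtubule protein. The 36 pairs of S phase genes had a median r of 0.766, led by Mcm3 and Mcm5 at 0.930, and the 252 pairs of an S phase and a mitosis gene had a median of 0.533, all positive. The median over all pairs of tested genes was -0.00406. Tyms, Rrm1 and Rrm2, which supply nucleotides, went closely with mitosis genes too. Tyms had its highest r with Top2a (0.934), Rrm2 with Birc5 (0.834), and Rrm1 had a median r of 0.738 with mitosis genes, against 0.309 for Mcm2. Ccne2 and Gins2 followed neither class, with median r of 0.094 and 0.257 with mitosis and 0.143 and 0.200 with S phase genes. Both overlap other genes, so their counts are less certain. The highest r of Gins2 with a member was with Cdt1 (0.744), which also lies inside Gm20388. These correlations are descriptions over 20 libraries that share 1 scaling.

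**Figure D4:**
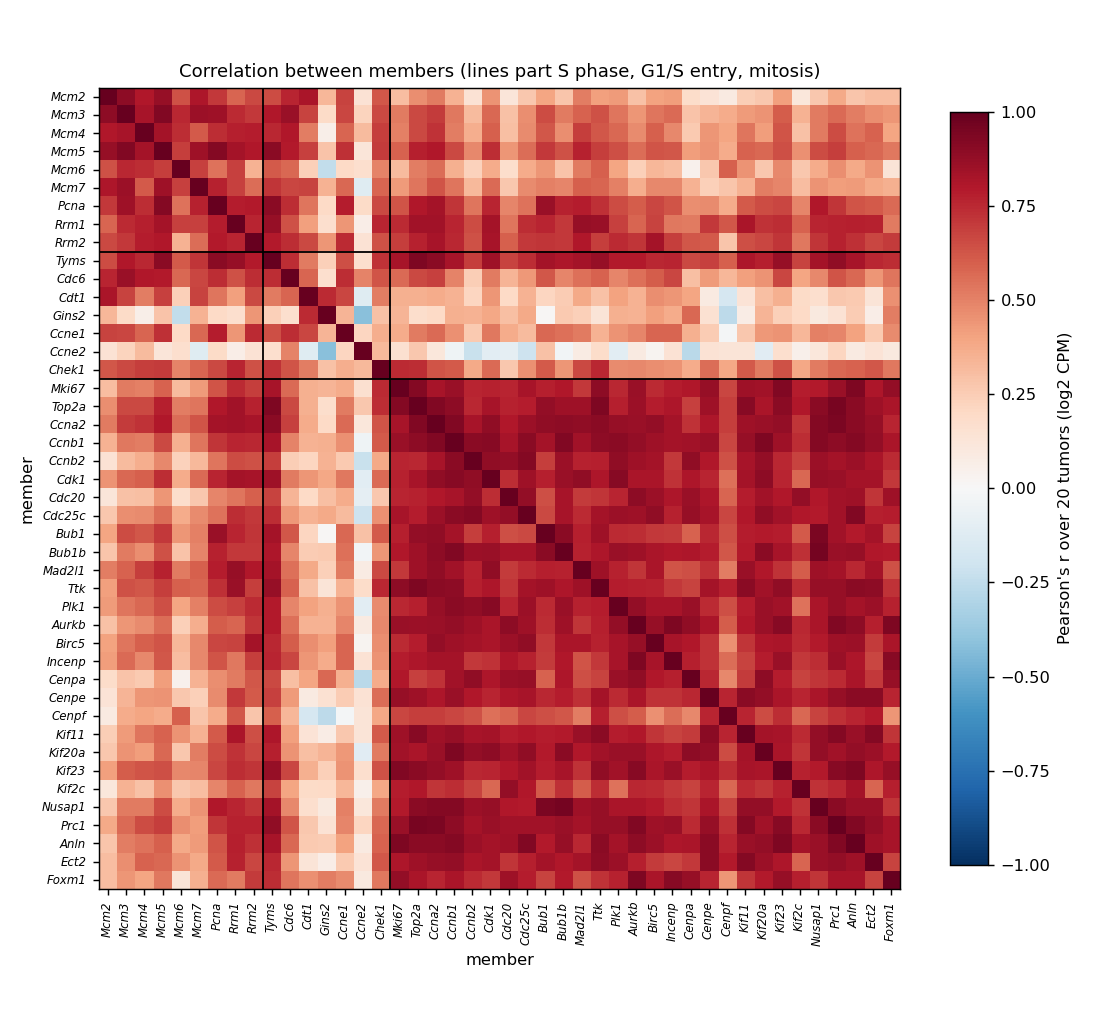
Pearson's r of log2 CPM over 20 tumors for each pair of the 44 members, on a color scale from -1 (blue) to 1 (red), ordered as S phase, G1/S and mitosis with black lines between. The mitosis block is red throughout (median 0.821), the S phase block is red (0.766), and the block between them is paler (0.533).

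Which genes moved with a mitosis gene and which with an S phase gene was then asked across all genes, with edgeR's quasi-likelihood test on the counts and Benjamini-Hochberg adjustment. Each slope is the log2 change of a gene per doubling of Mki67, or of Mcm2, over the 20 tumors, and the reference gene itself was left out. With Mki67 as reference, 27 of 27 mitosis genes, 2 of 9 S phase genes and 2 of 7 G1/S genes rose, where 1.32% of the 18882 genes tested were called either way. Over all genes, 0.831% (157 genes) rose and 0.487% (92 genes) fell, none of the latter a member. The mitosis slopes had a median of 0.85 and ran from 0.53 ± 0.13 (SE) for Mad2l1 to 0.99 ± 0.14 for Ccnb1. Anln, an actin-binding protein of the cleavage furrow, had the smallest adjusted p (2.88e-05, slope 0.92 ± 0.10), with Top2a (0.87 ± 0.10) and Kif23, a motor of the central spindle (0.86 ± 0.10), close behind. Slopes by role were 0.91 ± 0.17, 0.89 ± 0.16 and 0.86 ± 0.11 for the spindle checkpoint kinases Bub1, Bub1b and Ttk. They were 0.84 ± 0.12, 0.61 ± 0.13 and 0.68 ± 0.13 for Aurkb, Birc5 and Incenp of the passenger complex. For the centromere and kinetochore genes Cenpa, Cenpe and Cenpf they were 0.85 ± 0.15, 0.84 ± 0.12 and 0.89 ± 0.21. Foxm1 had a slope of 0.92 ± 0.13. The S phase slopes had a median of 0.44, and the 2 that passed were those of the reductase subunits Rrm1 (0.51 ± 0.11, adjusted p 0.0155) and Rrm2 (0.58 ± 0.14, adjusted p 0.0369). Of the G1/S genes, Tyms (0.66 ± 0.11) and Chek1 (0.69 ± 0.15) rose. No helicase subunit passed the adjusted threshold, with slopes from 0.21 ± 0.15 for Mcm2 to 0.46 ± 0.14 for Mcm5. All 9 S phase slopes were positive, and 6 had an unadjusted p under 0.05, against 1863 of the 18882 genes tested.

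The number of calls rested on tumor Hi 8. Without it, 5 of 27 mitosis genes (Anln, Kif23, Ttk, Top2a and Ccnb1), 0 S phase and 0 G1/S genes were called and 10 genes in all, while the median mitosis slope was 0.83 and all 27 slopes were positive. With the 9 Lo tumors alone 0 of 27 were called (median slope 0.59), and with the 11 Hi tumors alone 17 of 27 (median 0.83). Rrm2 was also not called when Lo 1, Lo 2, Lo 8, Hi 2, Hi 4, Hi 9, Hi 10 or Hi 11 was left out. A test of the difference between the Lo and the Hi slope called 0 of 18882 genes (585 at an unadjusted p under 0.05) and 0 of 43 members (1 unadjusted).

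With Mcm2 as reference, the calls fell among S phase and G1/S genes. Of the 8 other S phase genes 4 rose, all helicase subunits: Mcm3 by 1.08 ± 0.14 (adjusted p 0.00108), Mcm5 by 0.98 ± 0.14 (adjusted p 0.00198), Mcm4 by 0.78 ± 0.14 and Mcm7 by 0.62 ± 0.12. The loading factors Cdc6 (1.06 ± 0.21) and Cdt1 (0.91 ± 0.17) rose too, 2 of 7 G1/S genes, a count that was 0 without Lo 2, Hi 1, Hi 4, Hi 5, Hi 10 or Hi 11 and 1 without any of 8 other tumors. Over all 18882 genes 0.111% (21 genes) rose and 1 gene, Crebl2, fell (0.0053%; adjusted p 0.0317), but was not called without Lo 2, Lo 4, Hi 1, Hi 2, Hi 4, Hi 5, Hi 7, Hi 10 or Hi 11. None of the 28 mitosis genes was called, with a median slope of 0.44 and 4 at an unadjusted p under 0.05 (12 without Lo 9, 11 without Lo 4, 8 without Hi 8, 2 without Lo 2 or Hi 11 and 1 without Hi 4), and Mki67 had a slope of 0.43 ± 0.30 (adjusted p 0.717). The remaining S phase slopes were 0.88 ± 0.22 for Mcm6, 0.82 ± 0.19 for Pcna, 0.57 ± 0.18 for Rrm1 and 0.79 ± 0.20 for Rrm2, and Ccne1 had the steepest slope of the members at 1.42 ± 0.36, with adjusted p from 0.104 to 0.309. Mcm3 and Mcm5 were called whichever tumor was left out. The S phase count was 2 without Lo 2, Hi 1, Hi 2, Hi 4, Hi 5, Hi 10 or Hi 11, 3 without Lo 9, and 0 within the Lo or the Hi tumors alone, and the count over all genes was 3 to 6 without 1 of those 7 tumors and 13 without Lo 9. In the Lo tumors alone the median mitosis slope on Mcm2 was -0.05, with 12 of 28 positive, and in the Hi tumors alone it was 0.67, and the test of that difference called 0 genes (539 unadjusted) and 0 members (4 unadjusted).

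The difference between the 2 slopes was tested in 1 fit with both references. All 27 mitosis genes had a larger slope on Mki67 than on Mcm2, with a median difference of 0.79, and the S phase genes had a median difference of -0.49. None of the 42 members passed the adjusted threshold, so a difference between the slopes was not shown for any single member. The smallest adjusted p were 0.117 for Anln (difference 0.94 ± 0.20), 0.141 for the kinetochore motor Cenpe (1.10 ± 0.24), 0.196 for Mcm3 (-0.75 ± 0.18) and 0.243 for Mcm5 (-0.59 ± 0.16). At an unadjusted p under 0.05 there were 20 mitosis genes (12 without Hi 8), against 1796 of the 18881 genes tested. The fit called 3 genes, each with a smaller slope on Mki67 than on Mcm2, namely Bop1 (-1.09 ± 0.15), Hgh1 (-1.43 ± 0.23) and Ppm1g (-0.71 ± 0.12) (0.0159% of genes), named after their values were seen, and the count was 17 without Lo 8, 0 without Hi 8 and 1 without any of 11 other tumors.

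**Figure D5:**
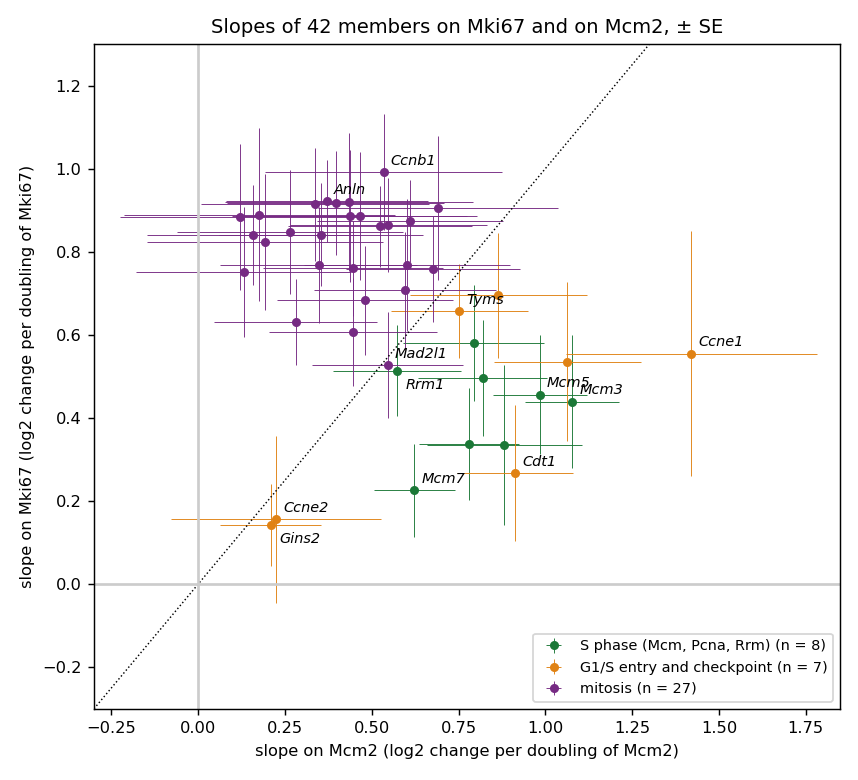
Slope of each member on Mki67 (vertical) against its slope on Mcm2 (horizontal), both in log2 change per doubling of the reference, from the separate fits, with bars of 1 SE and a dotted line of equal slopes, for 42 members without the references themselves. Of the 27 mitosis genes (purple) 26 lie above the line and Mad2l1 lies just below it, while the 8 S phase genes (green) and 7 G1/S genes lie below it, with Rrm1, Tyms, Gins2 and Ccne2 close to it.

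Between Mki67 and Mcm2 themselves, Pearson's r was 0.312 (p = 0.182) and Spearman's rho 0.365 (p = 0.114) over 20 tumors, both from permutation tests with 100000 resamples and two-sided, 1 relation being tested. Without Hi 8 and Lo 1, the tumors farthest from the median of Mki67, r was 0.478, and it was -0.0379 within the Lo and 0.437 within the Hi tumors. The log2 CPM of Mki67 minus that of Mcm2 was lowest in Hi 8 (1.57) and highest in Lo 9 (3.03). Its mean was 2.57 ± 0.283 (SD, n = 9) in the Lo and 2.39 ± 0.329 (SD, n = 11) in the Hi tumors, a difference of 0.18, and an exact permutation test (two-sided, 167960 splits) gave p = 0.212. Over the 20 tumors, the total count had r of 0.0173 with Mki67 and -0.192 with Mcm2, and reads on the ribosomal RNA locus, as a percentage, had r of 0.329 with Mki67 and -0.263 with Mcm2, whose part in the slopes was not tested beyond leaving that locus out.

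Between Lo and Hi tumors no member was called by edgeR's quasi-likelihood test, nor was any of the 18883 genes (0%; 1045 at an unadjusted p under 0.05). DESeq2 called 1 gene, Serpina3g, and the test without a filter on low counts called 1 gene, Mir7671, both named after their values were seen. The estimates of the 28 mitosis genes were above 0, higher in Lo, here and in every alternative run. Those of the 9 S phase and 7 G1/S genes were above 0 too, but only 6 and 5 of them were under relative log expression scaling or DESeq2, and 6 to 9 and 5 to 7 were with 1 tumor left out. The estimates had medians of 0.22 for mitosis, 0.043 for G1/S and 0.074 for S phase genes, beside 0.00098 over all genes tested. Of the 28 mitosis genes 9 had an unadjusted p under 0.05 (20 without Lo 1, 14 without Hi 1, Hi 2 or Hi 9, and 5 without Lo 11, Hi 4 or Hi 11), led by the spindle checkpoint kinases Bub1b (0.37 ± 0.12, log2) and Bub1 (0.39 ± 0.13), Nusap1 (0.38 ± 0.12), the motor Kif20a (0.24 ± 0.08) and Ccnb1 (0.32 ± 0.13). Their smallest adjusted p was 0.655. Mki67 had an estimate of 0.18 ± 0.12. Without Hi 8, the median mitosis estimate was 0.17. The 28 mitosis genes moved together (median pairwise r 0.821) and 26 of them were lowest in Hi 8. Their shared sign therefore does not count as 28 separate observations. Ribosomal RNA reads were the larger part in the Lo tumors, as given above, and without that locus the median mitosis estimate was 0.21.

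Further genes of the pathway were read from the same fits, in which 0.831% of all genes rose with Mki67 and 0.111% with Mcm2. At the latter share, a count of 0 on Mcm2 in a short list says little. Of 39 further mitosis genes, 26 rose with Mki67 (median slope 0.70) and 0 with Mcm2 (median 0.43), led by Dlgap5, a spindle assembly protein (1.07 ± 0.13 on Mki67, adjusted p 8.36e-05; 0.18 ± 0.37 on Mcm2). Without Hi 8, 1 of the 39 was called. Of 41 further DNA replication genes 4 rose with Mki67 (Prim1, Dbf4, Uhrf1 and Mcm10; median slope 0.39) and 5 with Mcm2 (Chaf1a, Gmnn, Uhrf1, Fen1 and Lig1; median 0.65). The primase subunit Prim1 led on Mki67 (0.57 ± 0.11, adjusted p 0.00695). On Mki67 the count was 0 without Hi 8, 2 without Hi 11 and 10 without Lo 1, and on Mcm2 the count was 0 without Lo 2, Hi 1, Hi 2, Hi 4, Hi 5, Hi 10 or Hi 11 and 2 without Lo 9. Of 19 cell-cycle transcription regulators, E2f7, E2f8 and Tfdp1 rose with Mki67 and 0 with Mcm2. These calls are with Hi 8 included, and without it 10 genes in all were called on Mki67. E2f7, a repressor of the E2F family, had a slope of 1.03 ± 0.14 (adjusted p 0.000253). Among 13 G1 cyclins, their kinases and CDK inhibitors, Cdkn2c, the inhibitor of Cdk4 and Cdk6 known as p18, rose with Mki67 (0.64 ± 0.15, adjusted p 0.0254), and was not called without Hi 8 or Hi 11. Dlgap5, Prim1, E2f7 and Cdkn2c were named by rule, as the gene with the smallest adjusted p on Mki67 in each list. The other genes named in these counts were named after their values were seen, so every name was picked by its values.

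Among genes outside the list whose log2 CPM averaged 3 or more, the 5 most like Mki67 over 20 tumors were C330027C09Rik (r = 0.929), Dlgap5 (0.903), the kinetochore gene Kntc1 (0.888), the DNA glycosylase gene Neil3 (0.886) and Plk4, the kinase of centriole duplication (0.879). The 5 most like Mcm2 were the nucleolar gene Lyar (0.898), Umps of pyrimidine synthesis (0.861), Aarsd1 (0.811), the nuclear transport GTPase gene Ran (0.811) and Chaf1a, of the chromatin assembly factor that follows the fork (0.809). The 5 lowest r with Mki67 were those of the calcium channel gene Orai1 (-0.839), Gpc1, which codes for a cell-surface proteoglycan (-0.767), the sialyltransferase gene St3gal1 (-0.760), Mfge8, which codes for a milk fat globule protein (-0.755), and Cib1 (-0.751). With Mcm2 they were those of Crebl2 (-0.832), Acot11 (-0.794), Dcaf12 (-0.734), the p53 target Trp53inp1 (-0.728) and Gm12758 (-0.711). Among all genes at that level, the 50 most like Mki67 held 15 members, 14 mitosis and 1 G1/S, and the 50 most like Mcm2 held 6, of which 4 were S phase and 2 G1/S genes.

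Markers of other cells were measured beside these slopes. None of 11 lists had a gene called in either fit: epithelial and myoepithelial cells, fibroblasts, adipocytes, endothelium, 4 lists of blood cells (leukocytes, macrophages, T and B cells), hemoglobin and nuclear-retained RNA. The lists held only 2 to 7 tested genes each. Over all genes 1.32% were called on Mki67 and 0.117% on Mcm2, so 0 calls in these lists say little. On Mki67 every slope was positive for adipocytes (5 genes), hemoglobin (4) and nuclear-retained RNA (3), and negative for leukocytes (5). On Mcm2 every slope was negative for endothelium (5), T cells (4) and nuclear-retained RNA (3), and positive for myoepithelial cells (4). In each fit the other lists held slopes of both signs. The smallest adjusted p on Mki67 in these lists was that of the adipocyte gene Cidec (slope 2.40 ± 1.06, adjusted p 0.432), and next came the macrophage gene Mrc1 (0.63 ± 0.34, adjusted p 0.587) and the epithelial gene Cldn7 (-0.17 ± 0.10, adjusted p 0.654). The leading genes of the other 8 lists, Laptm5, Cd3e, Cd79b, Pdgfrb, Tek, Krt14, Malat1 and Hba-a2, had an adjusted p from 0.721 to 0.888. Over 20 tumors the summed level ran from 281 to 668 CPM for leukocyte, 209 to 353 CPM for macrophage, 620 to 2305 CPM for fibroblast, 46.2 to 112 CPM for endothelial and 5.74 to 53.7 CPM for adipocyte markers. Myoepithelial markers summed to 20.3 to 75.0 CPM, B cell markers to 0.416 to 1.03 CPM, nuclear-retained RNA to 1697 to 5750 CPM and hemoglobin to 29.1 to 231 CPM. The r of these sums with Mki67 lay between -0.169 (macrophages) and 0.347 (adipocytes), and with Mcm2 between -0.403 (T cells) and 0.296 (myoepithelial cells). The part of cell makeup in the members' levels was not tested beyond these values.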

How the data were processed

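Polyadenylated RNA of 20 tumors, 1 per mouse, was sequenced from TruSeq libraries, all prepared and run together according to the study's methods. The authors trimmed the paired reads, aligned them to mm10 with TopHat2 2.0.12 within MapRseq and deposited whole-number read counts per gene, with featureCounts 1.4.4 among the tools of the submitters' processing notes, which also name hg19. The annotation release, strand setting and handling of multiply mapped reads are not given in the sources used here.

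Counts were filtered with filterByExpr and scaled by TMM in edgeR 4.0.16 (R 4.3.3), which left 18883 genes. Members were compared between tumors as CPM, as log2 CPM with a prior count of 2, and between genes as RPKM, from counts over the table's coding length. Lo and Hi tumors, and slopes on the log2 CPM of Mki67 or Mcm2, were tested by edgeR's quasi-likelihood fit over all 20 tumors, with Benjamini-Hochberg adjustment over all genes at 0.05. The fit was tested on simulated counts. DESeq2 1.42.0, other scalings, no filter and leaving out tumors were alternatives. Sequences came from RefSeq (GRCm38.p6). Overlaps were read from GENCODE vM21, in which 44 of 44 gene identifiers were found, 27 with identical coordinates. P-values measure spread between mice, since each tumor came from its own mouse. The members and lists were chosen with earlier results of these data known. Named are all members by role, a set in full with the widest and narrowest of each class, the 5 genes most and least like Mki67 and Mcm2, and the gene with the smallest adjusted p of each list.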

Additional observations from a re-analysis of the deposited data

Results flagged for a closer look

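A single tumor lay far from the other Lo tumors, by Dixon's ratio of gap to range, in 5 of 45 values examined (44 members and Mki67 minus Mcm2), where chance marks about 1 in 20. The critical values used here did not extend to 11 tumors, so the Hi tumors, Hi 8 among them, were not examined in this way.

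Lo 2 stood above the other 8 Lo tumors in 3 genes of DNA synthesis. Its Pcna was 115 CPM, with the next Lo tumor at 86.7 CPM. Its Tyms was 48.9 CPM against 38.5 CPM in the next. Its Mcm5 was 87.1 CPM against 71.1 CPM. The gap took 0.638, 0.575 and 0.513 of the range, with a critical value of 0.493 for 9 tumors.

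Lo 1 stood below the other Lo tumors in 2 genes of cytokinesis. Its Kif20a was 40.6 CPM with the next Lo tumor at 49.4 CPM, and its Anln was 33.3 CPM against 43.4 CPM. The cause of these values was not tested.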

How the results depend on the processing

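With each tumor left out in turn, the genes called in the slope on Mki67 numbered 10 to 273 (249 with all tumors), its mitosis members 5 to 27 and its S phase members 0 to 2. In the slope on Mcm2 they numbered 3 to 30 (22 with all), with 2 to 5 S phase members, and in the difference of the slopes 0 to 17 (3 with all). Lo against Hi called 0 in each. Under DESeq2 the counts were 386 for Mki67, 130 for Mcm2 with 7 S phase members, and 1 for Lo against Hi. Without a filter on low counts they were 56 for Mcm2 and 1 for Lo against Hi. With Lo or Hi as a term, 1 S phase member was called on Mki67. The slope on Mki67 called 0 genes, 0 mitosis and 0 S phase members in the Lo tumors alone, without the 2 tumors farthest from the median, and without the 3 tumors lowest in Mki67, the last of these chosen after the data were seen. In the Hi tumors alone it called 106 genes, with 17 mitosis and 0 S phase members. The slope on Mcm2 called 0 genes and 0 S phase members in the Lo tumors alone, in the Hi tumors alone and without the 2 tumors farthest from the median. These fits hold fewer tumors. The test of the difference of slopes and of Lo against Hi slopes was also added after the data were seen.

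With a replicate block on the 9 shared sample numbers, the slope on Mki67 called 44 genes, 15 mitosis and 0 S phase members, the slope on Mcm2 called 0 and 0, and the difference of slopes 0. Same-numbered tumors correlated above 0.1 in 3 of 9 pairs (r from -0.418 to 0.208). The Hi tumor most like a Lo tumor bore its number in 1 of the 9. These values show no pairing by number, but so few pairs cannot settle whether one exists.

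Among the single genes followed through the alternatives, 3 slopes changed sign: the slope on Mki67 of Mcm6 was -0.023 under the block, and those of Mcm4 and Ccne2 were -0.11 and -0.075 in the Lo tumors alone. Counts by sign moved more widely: members with a Lo against Hi estimate above 0 numbered 39 to 44 of 44 with 1 tumor left out, 39 under relative log expression scaling, DESeq2 or the block and 40 without the filter or the ribosomal RNA locus, and mitosis slopes on Mcm2 above 0 numbered 26 to 28 of 28 with 1 tumor left out and 12 in the Lo tumors alone. The cause was not tested. The median pairwise r of the mitosis genes was 0.705 with Spearman's rho, 0.817 with log2(RPKM + 1) on total counts and 0.729 to 0.832 with 1 tumor left out, chosen after the data were seen. The log2 difference of Mki67 and Mcm2 between Lo and Hi kept its direction and its side of the threshold in every alternative run for it. The lowest member count was 230 reads (Ccne1).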

Other observations

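At the other end from the mitosis genes stood the 5 genes with the lowest r with Mki67. They were taken over the 20 tumors, among genes with log2 CPM averaging 3 or more. All 5 had negative slopes past the adjusted threshold in edgeR's quasi-likelihood test, where 0.487% of all genes tested (92 genes) fell. These genes were picked by r on the same values, so their direction was set by the picking and the slopes are no separate evidence. They were Orai1, a plasma membrane calcium channel (r = -0.839, slope -0.52 ± 0.09, adjusted p 0.00184), the heparan sulfate proteoglycan gene Gpc1 (r = -0.767, slope -0.82 ± 0.15), the sialyltransferase gene St3gal1 (r = -0.760, slope -1.33 ± 0.21), Mfge8, which codes for a protein of the milk fat globule (r = -0.755, slope -0.72 ± 0.15), and Cib1 (r = -0.751, slope -0.51 ± 0.11). Of these, St3gal1 ran from 11.6 to 62.6 CPM and Mfge8 from 1594 to 3418 CPM. None of the 5 was called without Hi 8. The genes with the lowest r with Mcm2, picked in the same way, were Crebl2 (r = -0.832, slope -0.74 ± 0.14), Acot11, Dcaf12, the p53-induced gene Trp53inp1 and Gm12758. Of these only Crebl2 was called lower as Mcm2 rose (adjusted p 0.0317), a call that was lost without any 1 of several tumors, as given above. The adjusted p of the other 4 ran from 0.104 to 0.156.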
